A study of Homo sapiens with 49 samples.

Results

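The comparison described here is between untreated lymphoma cells after 48 h in culture and the same cells at 0 h. It was taken from a study that exposed lymphoma lines to doxorubicin, a chemotherapy drug. The lines derive from diffuse large B-cell lymphoma, a fast-growing cancer of B lymphocytes. Its members were chosen by the dose, time and line in the sample titles, with no measured value used, and are 6 of the study's 49 arrays. They form 3 pairs, 1 each for OCI-Ly7, RIVA and U2932, and these are 3 of the 6 lines in the series. OCI-Ly7 is known as a line of the germinal-centre type, and RIVA and U2932 as lines of the activated B-cell type. The 0 h and 48 h groups received no drug (0 µg/mL) and had 3 arrays each. The same 3 lines also had untreated arrays at 2 h and 12 h, and arrays at 2 h and 48 h in 0.00061 µg/mL doxorubicin, which is called the low dose here, with 3 arrays for each. All groups grew in RPMI medium with serum and antibiotics, and total RNA was labelled with a 3' amplification kit and measured on Affymetrix arrays. Each line had 1 array for each dose and time, so that the line is the replicate, and the labels do not say whether cells were fed, diluted or counted between 0 h and 48 h.

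Growing lymphoma cells spend much of their RNA synthesis on making ribosomes. The transcription factor MYC drives the genes for ribosome assembly, polyamine and nucleotide synthesis, and cells that run short of growth factors or amino acids are known to shut this programme down. A lack of amino acids also activates the integrated stress response, in which the factor ATF4 switches on genes for amino acid synthesis and transport. A lack of oxygen stabilises the HIF factors, which switch on genes of glycolysis and blood vessel growth.

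Values are deposited log2 intensities, in which a difference of 1 is a 2-fold change, and only differences of 1 gene between arrays were interpreted. One probe set stood for each of 19775 genes. The array medians over probe sets lay between 4.84 and 5.04, and the number of arrays limits the precision. A short set of defining markers was used to check the cell type. The 5 of these for B cells that were measured (MS4A1, CD79A, CD79B, PAX5 and CD22) were bright on all 6 arrays, from 9.06 to 13.7. The defining markers of T cells (4), myeloid cells (4), erythroid cells (2) and fibroblasts (4) lay between 2.90 and 7.35. In longer lists, by the test of each line described below, 1 of 11 T-cell markers was called higher and 2 lower in OCI-Ly7 and 3 were called higher in RIVA, 1 of 8 fibroblast markers was called lower in RIVA and 1 higher in U2932, 1 of 8 epithelial markers was called higher in OCI-Ly7 and 1 lower in RIVA, and none of 8 myeloid and 5 erythroid markers was called in any line. Their part in the results was not tested. Among the 4 defining epithelial markers, EPCAM was bright in RIVA and U2932 at both times (8.63 to 9.76), while KRT8, KRT18 and KRT19 lay between 3.90 and 5.39. The summed level of the fibroblast markers was 20.4 to 21.6 at 0 h and 20.2 to 21.1 at 48 h, and that of the erythroid markers was 10.7 to 11.1 and 11.1 to 11.5.

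Signs of RNA quality moved with time in OCI-Ly7 and RIVA. The difference between the 3' and 5' control probe sets of ACTB, which grows when RNA is shortened or copied incompletely, was 0.78 at 0 h and 2.66 at 48 h in OCI-Ly7. The same difference was 0.84 and 2.04 in RIVA, and 0.07 and 0.20 in U2932. It was also high on other arrays, with 1.85 in OCI-Ly7 at 12 h and 1.66 in RIVA at 2 h. Poly-A control transcripts are bacterial RNAs added in fixed amounts before labelling. Their mean was lower at 48 h by 0.77 in OCI-Ly7, 0.75 in RIVA and 0.15 in U2932, and scaling to it shifted the median gene by 0.80, 0.74 and 0.15. The deposited scale sets that median close to 0, so every change below is relative to the bulk of genes on the array. The poly-A scale uses the mean of these controls, whose median moved by -1.19 in OCI-Ly7, -1.42 in RIVA and -0.09 in U2932. On the poly-A scale the median gene was thus higher at 48 h in the untreated pairs. Medians on that scale are printed beside the lists described below where a printed median turns its sign. In the low-dose pair of RIVA the same scaling moved the median gene to -0.13. That pair shares no array with the untreated pair of RIVA. Its ACTB difference was 1.62 at 2 h and 1.81 at 48 h, a move of 0.19, and its poly-A mean moved by 0.15. The part of RNA quality in the results was not tested, and as the files give no dates of extraction or scanning, batch and time cannot be told apart. In bulk samples a change of cell state and a change in the share of cells in that state cannot be told apart.

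**Figure D1:**
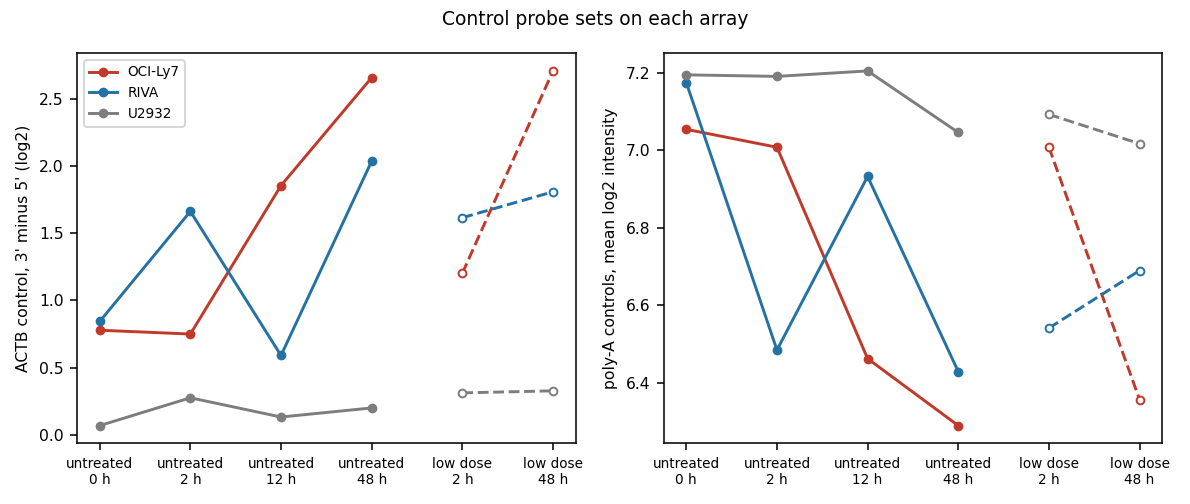
Control probe sets on each array. Left, the 3' minus 5' difference of the ACTB control (log2); right, the mean log2 intensity of the poly-A controls. Lines join arrays of one cell line, with filled points for untreated and open points for low-dose arrays; no error bar is shown because each point is 1 array. OCI-Ly7 and RIVA have higher ACTB differences at 48 h (2.66 and 2.04) than at 0 h, while U2932 stays between 0.07 and 0.33.

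The first question was which genes changed in the same way in all 3 lines. With the line as a block, limma called 0 of 19775 genes at a Benjamini-Hochberg adjusted p below 0.05 (0.0%), and the smallest adjusted p was 0.203. At an unadjusted p below 0.05 the count was 2552. A total of 3658 genes (18.5%) were higher in 3 of 3 lines and 3433 (17.4%) were lower, with no test. The comparison had 2 residual degrees of freedom, and the median gene had 7.9 after moderation. Other settings changed this count: without U2932 the same test called 217 genes, 78 higher and 139 lower, a joint fit of all untreated arrays of the 3 lines called 787, 209 higher and 578 lower, and the poly-A scale gave 4374, of which 4355 were higher.

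The lines differed in how far they moved. The standard deviation over genes of the 48 h minus 0 h difference was 0.489 in OCI-Ly7, 0.419 in RIVA and 0.253 in U2932. Differences of at least 2-fold were seen for 625 genes upward and 460 downward in OCI-Ly7, for 294 and 358 in RIVA, and for 34 and 21 in U2932. At 12 h the standard deviations were 0.226, 0.174 and 0.199, and fewer than 31 genes passed 2-fold in any line. An exact sign-flip test over 3 lines cannot go below p = 0.25, so these sizes are a description.

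The low-dose arrays gave a second look at the same span of time in the same lines, from 2 h to 48 h, on arrays that the untreated pairs do not use. The limma test of that span also called 0 of 19775 genes (0.0%), with 2580 at an unadjusted p below 0.05 and 708 called without U2932. Line by line the pairs resembled each other. Over all genes the untreated and the low-dose difference had a Pearson correlation of 0.857 in OCI-Ly7, 0.693 in RIVA and 0.405 in U2932. Between lines the untreated differences had correlations of 0.501 (OCI-Ly7 and RIVA), 0.106 (OCI-Ly7 and U2932) and 0.207 (RIVA and U2932). These are descriptions across 19775 genes, which are not independent and share arrays and normalization.

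**Figure D2:**
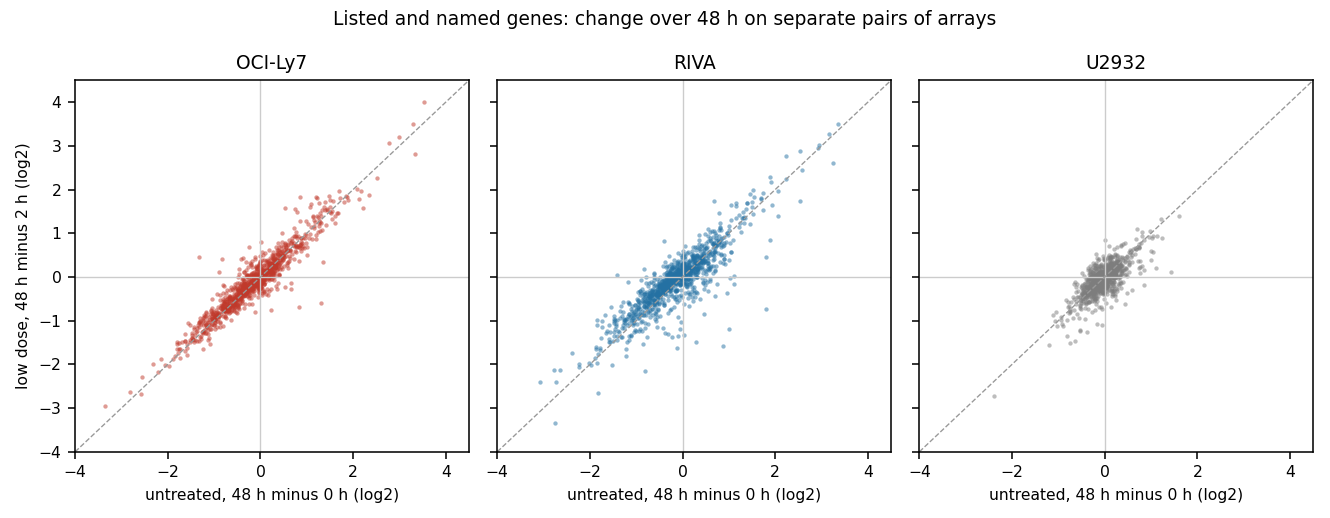
Change over 48 h of the listed and named genes in the untreated pair (horizontal axis, log2) and in the low-dose pair (vertical axis, log2) of each line; each point is 1 gene and the dashed line marks equal values. Points of OCI-Ly7 and RIVA spread along the dashed line, and those of U2932 lie closer to 0.

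The change of each line was therefore also tested, with its untreated and its low-dose pair as 2 pairs. All 12 arrays of the 3 lines were in the same fit. This design was chosen after the data were seen. Its p-values set a line's mean change against an error pooled over the pairs of all 3 lines, with variance borrowed from all genes. They do not measure how well the 2 pairs of that line agree, and do not measure the spread between repeated cultures. A gene can thus be called in a line whose own 2 pairs lie far apart. In OCI-Ly7, limma called 3372 genes higher (17.1%) and 2671 lower (13.5%) at an adjusted p below 0.05, and with the arrays centred on their medians the split was 2547 higher and 3530 lower. In RIVA it called 2427 higher (12.3%) and 2288 lower (11.6%), with 1998 higher and 2713 lower on the centred arrays. With poly-A scaling the calls were 10381 higher and 142 lower in OCI-Ly7 and 1246 higher and 161 lower in RIVA. In U2932 it called 338 higher (1.71%) and 410 lower (2.07%), or 15 and 4 with poly-A scaling. OCI-Ly7 and RIVA had 1437 genes called higher in both (7.27%) and 1413 called lower in both (7.15%), and 242 called in opposite directions. The change differed between the 3 lines for 5252 genes (26.6%) by a moderated F test. These shares of all genes are the background for every count of list members given below. In the rest of the text "rose" and "fell" are used of a gene called in that line, and a line's change is the mean over its 2 pairs. The standard error of such a change was 0.138 for the median gene.

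**Figure D3:**
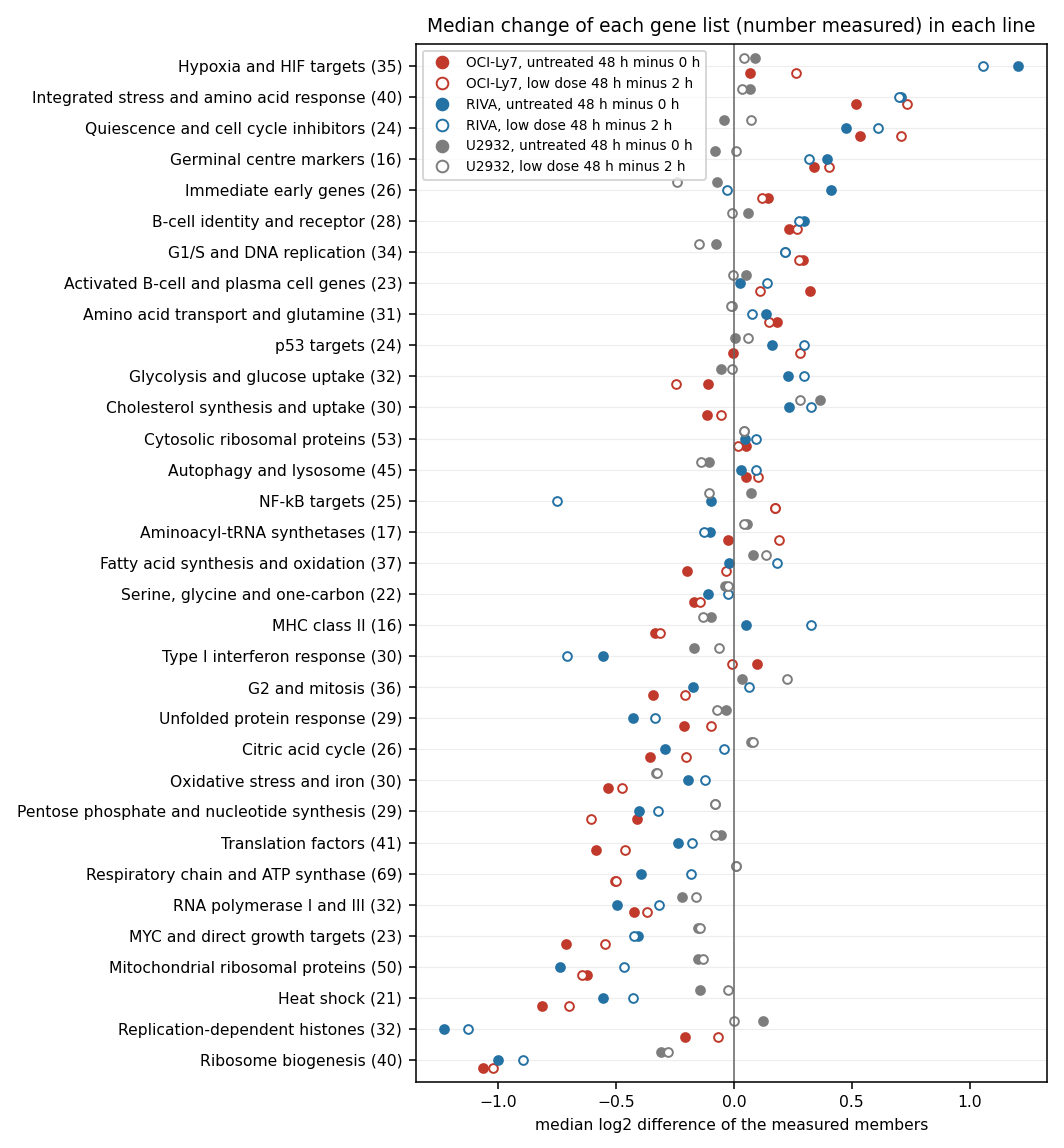
Median log2 difference of the measured members of each gene list, in each line. Filled points are untreated 48 h minus 0 h and open points are low dose 48 h minus 2 h; the number of measured members follows the name of the list. Ribosome biogenesis lies lowest in OCI-Ly7 (-1.06), and the hypoxia list lies highest in RIVA (1.21). Scaled to the mean of the poly-A controls, ribosome biogenesis stays below 0 in all 3 lines, while the mitochondrial ribosomal list turns to 0.14 in OCI-Ly7. Scaled to their median, ribosome biogenesis would lie above 0 in OCI-Ly7 and RIVA.

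Genes for assembling ribosomes were lower at 48 h in all 3 lines, with a median over members of -0.76 for the mean of the lines, the lowest of the 38 lists. All 40 measured members of the ribosome biogenesis list were lower at 48 h in 3 of 3 untreated lines, against 17.4% of all genes. The median difference was -1.06 in OCI-Ly7 and -0.31 in U2932, and in RIVA the median decreased by 1.00. The low-dose pairs gave -1.02, -0.90 and -0.28. In OCI-Ly7 39 of 40 members fell, the exception being IMP4 at -0.15, in RIVA 40 of 40 and in U2932 16 of 40. The medians stayed below 0 on the poly-A scale, at -0.30, -0.25 and -0.16. That scale uses the mean of the controls. Their median moved by -1.19 in OCI-Ly7 and -1.42 in RIVA, further than the list did. Scaled to it, the list's medians would lie above 0 in OCI-Ly7 and RIVA and below 0 in U2932. In OCI-Ly7 at 12 h the list lay at -0.14, with an ACTB difference of 1.85. In the RIVA low-dose pair the list lay at -0.90, with an ACTB difference of 1.62 at 2 h and 1.81 at 48 h. Over the untreated pairs the ACTB difference moved by 1.88 in OCI-Ly7, 1.19 in RIVA and 0.13 in U2932. The part of RNA quality in this list was not tested.

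MRTO4, a factor for assembling the large ribosomal subunit, read 10.40 at 0 h and 8.35 at 48 h in OCI-Ly7, 10.35 and 8.11 in RIVA, and 9.75 and 9.23 in U2932. The 2 sets of arrays did not overlap, as the lowest 0 h array was above the highest 48 h array. Its change was -2.04 in OCI-Ly7, -2.15 in RIVA and -0.61 in U2932, each ± 0.09 (SE pooled over the 3 lines). All 3 were called with adjusted p of 4.66e-09, 9.15e-09 and 0.00324 (limma). NOP16, another large-subunit factor, read 11.39 and 8.82 in OCI-Ly7, 10.84 and 8.83 in RIVA, and 10.51 and 10.08 in U2932. It fell in all 3, with changes of -2.63, -1.99 and -0.44. RRP9, which binds the U3 small nucleolar RNA, fell in all 3 lines (-1.64, -1.27 and -0.75), as did the nucleolar protein NOL6 (-1.27, -1.26 and -0.72). The size for NOL6 depends on the probe set, as its untreated mean difference was -1.15 with the chosen one and -0.34 with the mean of all its probe sets. The size of the change differed between the 3 lines for 34 of the 40 members (26.6% of all genes).

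The E-box CACGTG, known to be bound by MYC and related factors, was looked for in RefSeq promoters of build GRCh38.p14, on both strands and from 250 bases before to 50 bases after each start. It was present in 19 of the 35 list members with a promoter entry (54.3%), in 1672 of 15384 genes overall (10.9%) and in 3 of 47 cytosolic ribosomal protein genes (6.38%). A match describes the letters only, and this motif and the ones below were chosen after the values were seen. The stretches of UTP20 and UTP14A, both parts of the small-subunit processome, are shown because they hold the motif before the start of every RefSeq transcript and fell most in both OCI-Ly7 and RIVA among such members. They are 120 bases each on the plus strand with the motif in capitals, UTP20 from chr12:101279985-101280104 and UTP14A from chrX:129905914-129906033.
UTP20: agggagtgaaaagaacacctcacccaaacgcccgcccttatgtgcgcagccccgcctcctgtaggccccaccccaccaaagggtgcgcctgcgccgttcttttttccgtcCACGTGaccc
UTP14A: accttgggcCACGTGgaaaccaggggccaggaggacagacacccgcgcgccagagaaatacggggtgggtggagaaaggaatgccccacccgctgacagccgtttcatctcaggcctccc
UTP20 read 9.08 at 0 h and 8.005 at 48 h in OCI-Ly7, 8.97 and 7.63 in RIVA, and 9.08 and 8.67 in U2932. It fell in OCI-Ly7 (-1.13) and RIVA (-1.35) and stood at -0.36 in U2932, not called (adjusted p = 0.0574, limma). UTP14A read 9.42 and 7.53 in OCI-Ly7, 8.90 and 7.83 in RIVA, and 9.38 and 8.75 in U2932, and fell in all 3 lines (-1.88, -0.97 and -0.49).

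Genes for the proteins of the finished cytosolic ribosome did not follow those for its assembly factors. The median of 53 measured ribosomal protein genes, of 79 listed, was 0.05 in OCI-Ly7, 0.05 in RIVA and 0.04 in U2932. Of the 53, 27 were higher in 3 of 3 untreated lines and 3 were lower, against 18.5% and 17.4% of all genes, with no test. In OCI-Ly7 9 rose and 7 fell (17.1% and 13.5% of all genes). In RIVA 6 rose and 0 fell (12.3% and 11.6% of all genes), and in U2932 2 rose and 0 fell (1.71% and 2.07%). These probe sets are very bright, where arrays compress differences, and many ribosomal protein genes have near-identical pseudogene copies. RPL31 read 13.50 and 13.76 in OCI-Ly7, 13.64 and 13.92 in RIVA, and 13.25 and 13.30 in U2932, and rose by 0.19 and 0.30 in OCI-Ly7 and RIVA. On the poly-A scale the list's medians were 0.82, 0.79 and 0.19, close to those of all genes.

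Polymerase subunits, mitochondrial ribosomal proteins and translation factors lay lower. RNA polymerase I and III genes had medians of -0.42, -0.50 and -0.22, and of 32 genes 18 fell and 2 rose in OCI-Ly7, 19 and 1 in RIVA, and 2 and 0 in U2932. The polymerase I and III subunit POLR1C read 9.01 and 7.72 in OCI-Ly7, 8.61 and 7.32 in RIVA, and 9.34 and 8.86 in U2932. It fell in all 3 lines, with changes of -1.33, -1.19 and -0.43. Mitochondrial ribosomal protein genes had medians of -0.62, -0.74 and -0.15, with 40 of 50 falling and 1 rising in OCI-Ly7, 45 and 0 in RIVA, and 2 and 0 in U2932. MRPL15 fell in all 3 lines (-1.82, -1.33 and -0.43). Among 41 translation factors 30 fell and 3 rose in OCI-Ly7, 20 and 8 in RIVA, and 1 and 1 in U2932, with medians of -0.59, -0.24 and -0.05. EIF2S1, the alpha subunit of the factor that delivers the initiator tRNA, fell by 1.79 in OCI-Ly7 and 1.20 in RIVA. On the poly-A scale the sign turned for polymerase genes (0.34 and 0.25) and for translation factors (0.18 and 0.51) in OCI-Ly7 and RIVA. There the mitochondrial list stood at 0.14 and 0.01, and in U2932 polymerase genes stood at -0.07 and translation factors at 0.10.

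Growth genes downstream of MYC fell even in OCI-Ly7, where MYC itself rose. MYC read 11.29 at 0 h and 12.24 at 48 h in OCI-Ly7, 10.81 and 10.40 in RIVA, and 7.88 and 7.71 in U2932. The 3 lines moved in different directions. MYC rose by 0.92 in OCI-Ly7 and fell by 0.52 in RIVA and by 0.63 in U2932, each ± 0.15 (SE pooled over the 3 lines). The difference between lines had an adjusted p of 0.000156 (limma F test). The pooled SE does not show how far the 2 pairs of 1 line lay apart. In U2932 the untreated pair alone differed by -0.18 and the low-dose pair by -1.08, and its untreated array at 2 h was higher than at 0 h (8.45). Of 23 measured MYC and growth target genes, 18 fell and 2 rose in OCI-Ly7, 16 and 0 in RIVA, and 2 and 0 in U2932, with medians of -0.71, -0.41 and -0.15, or 0.06 and 0.34 on the poly-A scale in OCI-Ly7 and RIVA. SRM, the spermidine synthase, read 10.92 and 8.94 in OCI-Ly7, 10.67 and 8.90 in RIVA, and 10.47 and 9.78 in U2932. Its changes of -2.01, -1.70 and -0.57 were all called. ODC1, the first enzyme of polyamine synthesis, fell by 1.32 and 0.89 in OCI-Ly7 and RIVA and stood at -0.21 in U2932 (adjusted p = 0.0678, limma).

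Genes tied to cell cycle exit rose in OCI-Ly7 and RIVA. Of 24 quiescence and cell cycle inhibitor genes, 16 rose in OCI-Ly7, 16 in RIVA and 2 in U2932, and none was called lower in any of them. Medians were 0.54, 0.48 and -0.04, and 1.30, 1.22 and 0.11 on the poly-A scale. On the mean of all probe sets of a gene the untreated mean difference was 0.76 for KLF2 (1.45 with the chosen one) and 0.46 for CCNG2 (0.77). KLF2, a factor that keeps lymphocytes quiescent, read 6.44 and 9.78 in OCI-Ly7, 7.01 and 8.46 in RIVA, and 5.28 and 4.84 in U2932. It rose by 3.08 and 1.33 in OCI-Ly7 and RIVA, and its change of -0.38 in U2932 was not called (adjusted p = 0.175, limma). CDKN1B, which encodes the inhibitor p27, read 9.25 and 10.97 in OCI-Ly7, 10.83 and 11.43 in RIVA, and 10.30 and 10.34 in U2932, and rose by 1.77 and 0.82 in the first 2. MXI1, a MYC antagonist, rose by 1.85 and 1.61. CCNG2, a cyclin of resting cells, rose in all 3 lines, by 1.28, 0.86 and 0.54. CDKN1A, which encodes the inhibitor p21, stood at -0.39, 0.38 and 0.53 and was called in none of the lines.

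Proliferation genes were mixed. G2 and mitosis genes had medians of -0.34 in OCI-Ly7, -0.17 in RIVA and 0.03 in U2932, and of 36 genes 17 fell and 5 rose in OCI-Ly7, 9 and 5 in RIVA, and 0 and 0 in U2932. The medians were 0.42, 0.57 and 0.18 on the poly-A scale. The low-dose median of RIVA was 0.06 on the deposited scale and -0.08 on the poly-A scale. CCNB1, the mitotic cyclin, read 11.76 and 9.60 in OCI-Ly7, 11.74 and 10.58 in RIVA, and 11.20 and 11.27 in U2932, and fell by 2.02 and 0.88 in OCI-Ly7 and RIVA. G1/S and replication genes had medians of 0.29, 0.22 and -0.08, the last being 0.07 on the poly-A scale. Of 34 genes 19 rose and 6 fell in OCI-Ly7, 17 and 4 in RIVA, and 0 and 5 in U2932. The licensing factor CDT1 rose by 0.98 and 1.03 in OCI-Ly7 and RIVA, and thymidine kinase TK1 by 1.00 and 0.95. The proliferation marker MKI67 was not called in OCI-Ly7 (0.11), rose by 0.48 in RIVA and stood at 0.31 in U2932.

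Probe sets of histone genes fell mainly in RIVA. The replication-dependent histones had a median of -1.23 in RIVA with 24 of 32 falling and 0 rising, -0.21 in OCI-Ly7 with 6 falling and 1 rising, and 0.12 in U2932 with none called in either direction. The difference between lines was called for 23 of them. H2BC9 read 11.09 at 0 h and 8.43 at 48 h in RIVA, 6.01 and 4.44 in OCI-Ly7, and 8.10 and 7.83 in U2932. It fell by 2.39 in RIVA and 1.31 in OCI-Ly7, and stood at -0.13 in U2932. H2BC4 fell by 3.04 in RIVA. Paralogous histone genes share sequence, and their probe sets may read more than 1 gene. The RNA was labelled with a 3' amplification kit, and which histone transcripts it copied was not tested. On the poly-A scale the medians were -0.48 in RIVA, 0.56 in OCI-Ly7 and 0.27 in U2932.

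**Figure D4:**
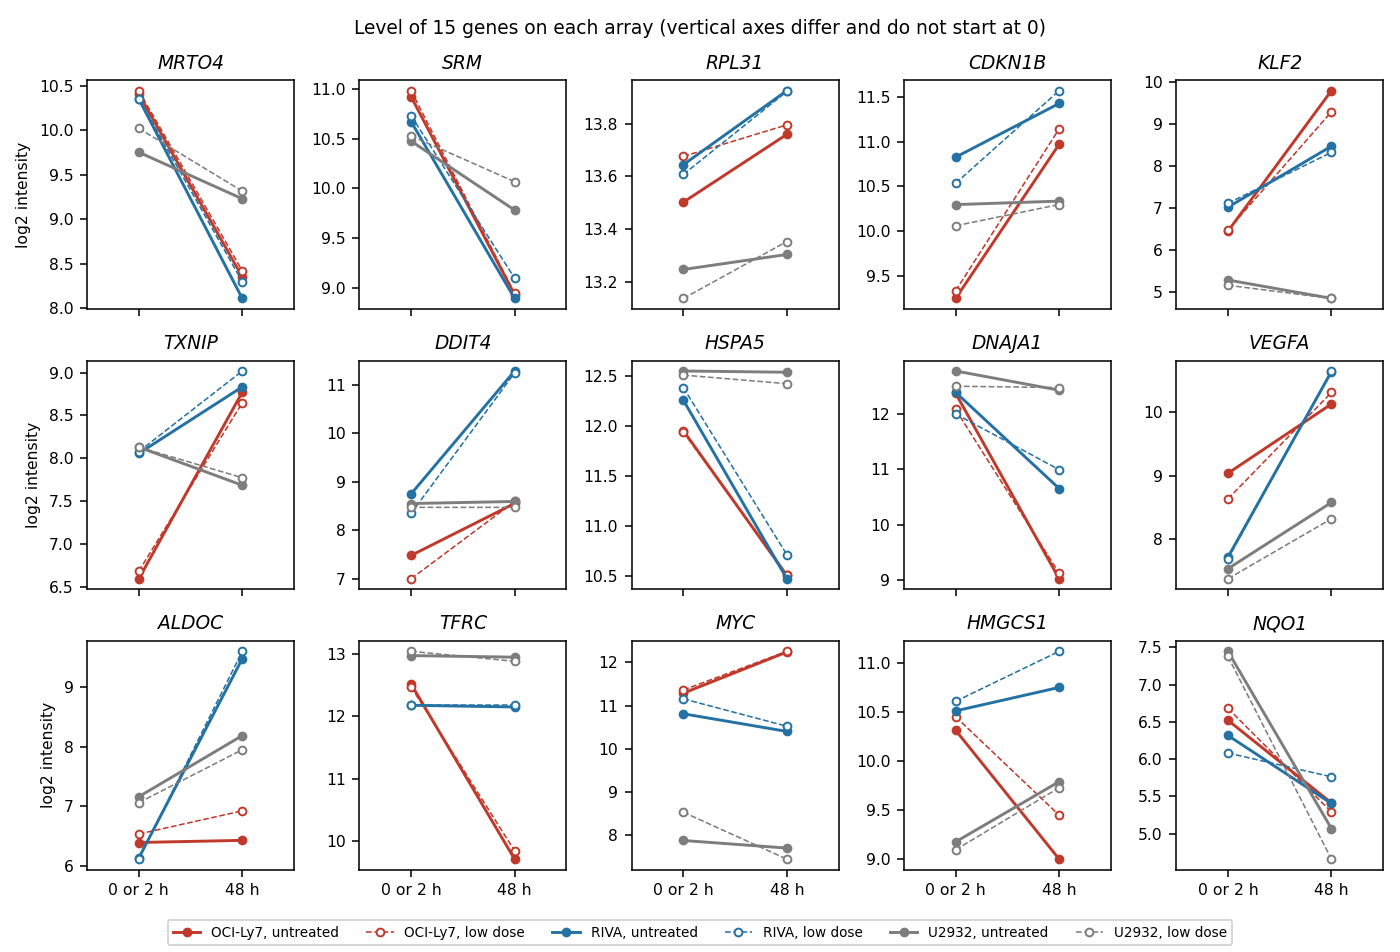
Log2 intensity of 15 genes on each array at the first time (0 h for untreated, 2 h for low dose) and at 48 h. Solid lines and filled points are untreated pairs and dashed lines and open points are low-dose pairs, coloured by line, with 1 array a point. MRTO4 is lower at 48 h in all 6 pairs, whereas MYC is higher at 48 h in OCI-Ly7 and lower in the other 2 lines; vertical axes differ and do not start at 0.

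Integrated stress response genes rose in OCI-Ly7 and RIVA. Of 40 measured genes of this and the amino acid response, 30 rose and 2 fell in OCI-Ly7, 27 rose and 0 fell in RIVA, and 2 rose and 3 fell in U2932. Medians were 0.52, 0.71 and 0.07, and 1.28, 1.45 and 0.22 on the poly-A scale. The difference between lines was called for 32 of them. INHBE, an activin subunit gene switched on by this response, read 4.55 and 8.09 in OCI-Ly7, 5.36 and 7.59 in RIVA, and 5.76 and 5.14 in U2932. It rose by 3.78 and 2.50 in OCI-Ly7 and RIVA and stood at -0.58 in U2932 (adjusted p = 0.0696, limma). DDIT4, an inhibitor of the growth kinase mTOR, read 7.48 and 8.55 in OCI-Ly7, 8.75 and 11.28 in RIVA, and 8.55 and 8.60 in U2932. DDIT4 rose by 1.33 and 2.71 in the first 2 lines. The pseudokinase gene TRIB3 rose by 1.26 and 1.33, and DDIT3, which encodes the factor CHOP, by 1.22 and 0.87, with -0.14 and -0.38 in U2932, not called. The sensor SESN2 rose by 1.15 and 1.74. Asparagine synthetase ASNS rose in all 3 lines, by 0.24, 0.71 and 0.41.

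On the untreated 12 h array of OCI-Ly7 this list stood at 0.36, against 0.04 in RIVA and -0.04 in U2932. At that time DDIT4 had a difference of 1.19 and INHBE one of 1.22 in OCI-Ly7. Each value rests on 1 array at 12 h, and the test of 12 h against 0 h across lines called 0 genes. On the OCI-Ly7 array the ACTB difference was 1.85, and the poly-A mean had moved by -0.59 from 0 h. The part of RNA quality in these values was not tested.

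The core of the amino acid response element, TGATGNAA on either strand, was present in 11 of 32 promoters of the list (34.4%) and in 556 of 15384 overall (3.61%). ATF3 and AARS1 are shown because they hold it before the start and rose in both OCI-Ly7 and RIVA. The 120 bases on the gene's strand come from chr1:212565160-212565279 (plus strand) for ATF3 and chr16:70289630-70289749 (minus strand) for AARS1, in build GRCh38.p14 from RefSeq. Capitals mark the motif, which in AARS1 is read on the opposite strand.
ATF3: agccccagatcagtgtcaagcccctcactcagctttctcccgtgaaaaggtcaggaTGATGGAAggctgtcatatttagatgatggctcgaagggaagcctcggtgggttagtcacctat
AARS1: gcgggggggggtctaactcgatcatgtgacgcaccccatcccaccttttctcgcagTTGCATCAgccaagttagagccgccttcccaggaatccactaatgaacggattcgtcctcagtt
The stress factor ATF3 went in opposite directions in the lines. It read 5.47 and 6.32 in OCI-Ly7, 4.93 and 7.46 in RIVA, and 7.54 and 6.34 in U2932, rose by 1.34 and 2.14 in OCI-Ly7 and RIVA and fell by 1.38 in U2932. One other bright probe set of ATF3 did not share its direction. AARS1, the alanyl-tRNA synthetase, rose in all 3 lines by 0.86, 0.66 and 0.94, and the difference between lines was not called (adjusted p = 0.185, limma F test). It read 10.13 and 10.90 in OCI-Ly7, 9.72 and 10.37 in RIVA, and 9.47 and 10.44 in U2932, and the groups did not overlap. Other tRNA synthetases fell, among them VARS1 (-1.70 in OCI-Ly7 and -1.44 in RIVA), and the list of 17 had 7 rising and 7 falling in OCI-Ly7, 4 and 7 in RIVA and 1 and 0 in U2932.

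Unfolded protein response genes were called in both directions in OCI-Ly7 and RIVA. HSPA5, the chaperone BiP, read 11.96 and 10.51 in OCI-Ly7, 12.26 and 10.47 in RIVA, and 12.55 and 12.54 in U2932. It fell in OCI-Ly7 (-1.44) and RIVA (-1.73), with -0.05 in U2932. SDF2L1, a BiP partner, read 9.63 and 7.25 in RIVA and fell there (-2.06). ERN1, the sensor IRE1, rose by 3.09 and 1.35, and EDEM1, of the degradation pathway, by 1.48 and 1.08. Of the 29 unfolded protein response genes, 11 rose and 13 fell in OCI-Ly7, 6 and 15 in RIVA, and 0 and 0 in U2932, with medians of -0.21, -0.43 and -0.03 that were 0.55, 0.32 and 0.12 on the poly-A scale.

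Genes of the heat shock list, which also holds the cold-induced RBM3, fell in OCI-Ly7 and RIVA. Of 21 measured, 15 fell and 1 rose in OCI-Ly7, 13 and 1 in RIVA, and 2 and 0 in U2932, with medians of -0.81, -0.55 and -0.14, which became -0.05, 0.19 and 0.01 on the poly-A scale. The chaperone HSP90AB1 read 13.30 and 10.74 in OCI-Ly7, 12.69 and 12.14 in RIVA, and 13.44 and 13.32 in U2932. It fell by 2.42 in OCI-Ly7 and 0.74 in RIVA. The GAANNTTC core of the heat shock element was present in 10 of 18 promoters of the list (55.6%) and in 1137 of 15384 overall (7.39%). DNAJA1, a co-chaperone of HSP70, and RBM3, a cold-induced RNA-binding protein, are shown because they hold it before the start and fell most in both lines among such members. Their stretches of 120 bases lie at chr9:33025023-33025142 and chrX:48574364-48574483, both on the plus strand of GRCh38.p14 (RefSeq), with the motif in capitals.
DNAJA1: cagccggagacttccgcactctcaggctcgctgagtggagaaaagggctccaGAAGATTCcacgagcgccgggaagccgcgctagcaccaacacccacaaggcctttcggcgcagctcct
RBM3: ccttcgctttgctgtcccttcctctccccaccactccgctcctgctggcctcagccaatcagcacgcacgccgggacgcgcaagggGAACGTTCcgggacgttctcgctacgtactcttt
DNAJA1 read 12.37 and 9.03 in OCI-Ly7, 12.39 and 10.65 in RIVA, and 12.77 and 12.43 in U2932, and fell in the first 2 (-3.15 and -1.37). RBM3 fell in all 3 lines (-1.31, -1.05 and -0.73), from 10.72, 10.57 and 10.37 at 0 h to 9.63, 9.47 and 9.76 at 48 h, and its groups did not overlap.

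Of 30 oxidative stress and iron genes, 17 fell and 2 rose in OCI-Ly7, 9 and 3 in RIVA, and 11 and 1 in U2932, with medians of -0.53, -0.20 and -0.33, or 0.23, 0.55 and -0.18 on the poly-A scale. NQO1, a quinone reductase under the antioxidant factor NRF2, read 6.52 and 5.41 in OCI-Ly7, 6.32 and 5.40 in RIVA, and 7.45 and 5.07 in U2932. It fell in all 3 lines (-1.25, -0.62 and -2.55), and the lines differed with an adjusted p of 0.000132 (limma F test). SQSTM1, the autophagy receptor p62, fell by 1.00 in U2932 and stood at -0.13 and 0.28 in OCI-Ly7 and RIVA, not called, and the lines differed (adjusted p = 0.000115, limma F test). One of its 3 other bright probe sets did not share its sign. TFRC, the transferrin receptor for iron uptake, read 12.52 and 9.71 in OCI-Ly7, 12.18 and 12.15 in RIVA, and 12.97 and 12.95 in U2932. Its change of -2.72 in OCI-Ly7 stood against -0.01 and -0.09 in RIVA and U2932, with a difference between lines at an adjusted p of 5.37e-09 (limma F test). TXNIP, which restrains glucose uptake and thioredoxin, rose by 2.07 in OCI-Ly7 and 0.86 in RIVA and stood at -0.40 in U2932.

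Hypoxia genes rose in RIVA. There 29 of 35 measured HIF targets rose and 0 fell, with a median of 1.21 in the untreated and 1.06 in the low-dose pair. In OCI-Ly7 16 rose and 8 fell, with a median of 0.07, and in U2932 6 rose and 0 fell, with a median of 0.09. The difference between lines was called for 29 of the 35. ALDOC, a glycolytic aldolase, read 6.13 and 9.48 in RIVA, 6.39 and 6.43 in OCI-Ly7, and 7.16 and 8.19 in U2932. It rose by 3.42 in RIVA and 0.96 in U2932, and its 0.21 in OCI-Ly7 was not called (adjusted p = 0.259, limma). PFKFB4, a regulator of glycolysis, rose by 3.21 and 0.71 in RIVA and U2932, and BNIP3, of mitochondrial removal, by 1.68 and 0.46. VEGFA, the blood vessel growth factor, rose in all 3 lines. It read 9.04 and 10.13 in OCI-Ly7, 7.72 and 10.64 in RIVA, and 7.54 and 8.58 in U2932, and rose by 1.38, 2.94 and 0.99, with an untreated mean difference of 1.68 that was 1.03 over all its probe sets.

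Glycolysis genes divided the lines further. In RIVA 18 of 32 rose and 3 fell, in OCI-Ly7 8 rose and 15 fell, and in U2932 2 rose and 0 fell, with medians of 0.23, -0.11 and -0.05. Hexokinase HK2 read 9.53 and 8.11 in OCI-Ly7, 9.57 and 9.77 in RIVA, and 8.97 and 8.88 in U2932. It fell by 1.43 in OCI-Ly7 and was not called in the other 2 lines (0.20 and -0.06). The aldolase ALDOA fell by 1.43 in OCI-Ly7 and rose by 0.22 in RIVA. On the poly-A scale the medians were 0.98 in RIVA, 0.66 in OCI-Ly7 and 0.09 in U2932.

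Mitochondrial energy genes fell in OCI-Ly7 and RIVA. Of 69 respiratory chain and ATP synthase genes, 58 fell and 2 rose in OCI-Ly7, 48 and 0 in RIVA, and 1 and 2 in U2932, and the lines differed for 53. Medians were -0.50, -0.39 and 0.01, with -0.18 in the low-dose pair of RIVA, and turned to 0.26, 0.35 and 0.16 on the poly-A scale. ATP5MC1, a ring subunit of ATP synthase, read 11.18 and 9.71 in OCI-Ly7, 10.93 and 9.61 in RIVA, and 10.81 and 10.52 in U2932, and fell by 1.41 and 1.34 in the first 2. Citric acid cycle genes had medians of -0.36 and -0.29 in OCI-Ly7 and RIVA, which were 0.41 and 0.45 on the poly-A scale. Of 26, 14 fell and 3 rose in OCI-Ly7 and 11 fell and 4 rose in RIVA, the falls including IDH3A (-1.12 and -1.11), while PCK2, the mitochondrial enzyme that makes phosphoenolpyruvate, rose by 1.49 and 1.32.

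Nucleotide synthesis genes fell alongside them. Of 29, 21 fell and 2 rose in OCI-Ly7, 17 and 1 in RIVA, and 4 and 0 in U2932, with medians of -0.41, -0.40 and -0.08, or 0.35, 0.34 and 0.07 on the poly-A scale. UMPS, which completes uridine monophosphate, fell by 0.89 in OCI-Ly7, fell by 1.00 in RIVA and fell by 0.43 in U2932. The purine enzyme PFAS read 10.83 and 9.69 in OCI-Ly7 and fell by 1.08 there. ASS1, the arginine synthesis enzyme, read 5.21 and 7.72 in OCI-Ly7, 6.48 and 8.36 in RIVA, and 4.89 and 5.22 in U2932. It rose by 2.39 and 2.09 in the first 2 lines and stood at 0.10 in U2932.

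Cholesterol genes more often fell than rose in OCI-Ly7, and more often rose in RIVA and U2932. Of 30 measured, 13 rose and 1 fell in U2932, 14 rose and 2 fell in RIVA, and 6 rose and 12 fell in OCI-Ly7. Medians were 0.36, 0.23 and -0.12, the last being 0.65 on the poly-A scale. HMGCS1, an early enzyme of the pathway, read 10.32 and 9.003 in OCI-Ly7, 10.51 and 10.75 in RIVA, and 9.18 and 9.79 in U2932. It fell by 1.16 in OCI-Ly7 and rose by 0.37 in RIVA and 0.62 in U2932. INSIG1, which holds back the sterol sensor, fell by 0.64 in OCI-Ly7 and rose by 0.67 and 0.85 in RIVA and U2932. In OCI-Ly7 and U2932 the exporter ABCA1 went the other way. It rose by 1.89 in OCI-Ly7 and fell by 1.05 in U2932, where it was dim (3.65 at 0 h). In RIVA it rose by 1.64, as HMGCS1 and INSIG1 rose there.

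Interferon genes fell in RIVA. The type I response list had a median of -0.56 in RIVA with 19 of 30 falling and 1 rising, 0.10 in OCI-Ly7 with 5 falling and 8 rising, and -0.17 in U2932 with 6 falling and 0 rising, and the RIVA median was 0.19 on the poly-A scale. ISG15, a ubiquitin-like interferon product, read 10.18 and 9.21 in OCI-Ly7, 11.02 and 9.75 in RIVA, and 7.22 and 6.39 in U2932. It fell in all 3 lines, by 0.98, 1.22 and 0.68. NF-kB targets in RIVA had a median of -0.10 in the untreated pair and -0.75 in the low-dose pair, with the first at 0.65 on the poly-A scale. The untreated 2 h array of RIVA stood at 0.76 over 0 h in this list, so the 2 baselines of RIVA differ for it. IRF4 in RIVA read 11.43 at 0 h, 12.74 at 2 h and 11.89 at 48 h, and its change was not called. Of 24 p53 targets, 8 rose and 3 fell in OCI-Ly7 and 10 and 5 in RIVA, with TP53INP1, a stress-induced regulator of autophagy, rising by 2.92 and 1.83.

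B-cell genes rose more often than they fell in OCI-Ly7 and RIVA. Of 28 B-cell identity and receptor genes, 14 rose and 5 fell in OCI-Ly7, 14 and 4 in RIVA, and 4 and 3 in U2932, with medians of 0.23, 0.30 and 0.06. CD22, a receptor that dampens B-cell signalling, read 9.10 and 10.62 in RIVA, 10.65 and 10.99 in OCI-Ly7, and 9.06 and 9.64 in U2932, and rose in all 3 lines, by 1.47, 0.29 and 0.51. The lineage factor EBF1 rose by 1.53 in OCI-Ly7 and 0.97 in RIVA and fell by 0.33 in U2932. The kinase PIM1 rose by 2.05 in OCI-Ly7 and 0.51 in RIVA. BCL6 and PRDM1 are opposing regulators of the plasma cell fate. They stood at -0.01 and -0.35 in OCI-Ly7 and at 0.06 and -0.17 in U2932, none of them called, and in RIVA BCL6 rose by 0.34. Both depend on the probe set. The untreated mean difference of PRDM1 was -0.19 with the chosen one and 0.11 over all its probe sets. That of BCL6 was 0.14 and 0.01.

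Of 16 germinal centre markers 9 rose and 0 fell in OCI-Ly7, 10 rose and 2 fell in RIVA, and 0 rose and 1 fell in U2932. MHC class II genes had a median of -0.33 in OCI-Ly7 (0.43 on the poly-A scale), with 8 of 16 falling and 2 rising in OCI-Ly7, against 1 falling and 7 rising in RIVA. Of 45 autophagy and lysosome genes 18 rose and 8 fell in OCI-Ly7 and 13 rose and 5 fell in RIVA, with medians of 0.05 and 0.03. Of 31 amino acid transport and glutamine genes 12 rose and 7 fell in OCI-Ly7, and 9 rose and 5 fell in RIVA. Of 37 fatty acid genes 5 rose and 14 fell in OCI-Ly7, 13 rose and 8 fell in RIVA, and 5 rose and 1 fell in U2932, where the desaturase gene SCD rose by 0.87, and the OCI-Ly7 median of -0.20 was 0.57 on the poly-A scale. These last lists held members called in both directions within a line. Over all genes 17.1% were called higher and 13.5% lower in OCI-Ly7, 12.3% and 11.6% in RIVA, and 1.71% and 2.07% in U2932.

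By rule, 12 genes in each direction were named for the size of their smallest change over the 3 untreated pairs, and none passed the test across lines (adjusted p of 0.203 to 0.297, limma). As the pairs chose them, their size there is a description. The smallest change kept was 0.69 upward (SLC23A1, with KLF15 next at 0.67) and -0.67 downward (SETMAR, with QTRT1 next at -0.67). In the low-dose pairs, which had no part in the choice, 8 of the 12 rises and 11 of the 12 falls had the same sign in 3 of 3 lines. The falls were RPP40, NQO1, ISG15, DNLZ, RRP9, DUS3L, NOL6, LANCL2, IFIT5, RRP12, SRM and SETMAR, of which RRP9, RRP12, NOL6 and the RNase P subunit RPP40 process ribosomal or transfer RNA. Over all probe sets of a gene, the mean difference of 10 of the 24 was smaller by more than 1.5 times (NOL6, VEGFA, ADAMTS6, ZBED6, CCDC18, PWAR6, DUS3L, LANCL2, RRP12 and SETMAR), and that of RRP12 went from -1.23 to -0.35.

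The rise with the highest mean was LINC01857, a long non-coding RNA on chromosome 2 (207662384 to 207679122, GRCh38.p14). It read 7.90 and 9.58 in OCI-Ly7, 6.35 and 8.41 in RIVA, and 7.19 and 8.80 in U2932. The mean difference was 1.78 ± 0.24 (SD, n = 3) with an adjusted p of 0.203 (limma), and the low-dose pairs gave 1.47, 1.97 and 1.40. The uncharacterised LOC100996740 on chromosome 1 had differences of 1.31, 1.21 and 1.24, and 1.41, 1.15 and 0.88 at the low dose. ALDH6A1, an enzyme of valine breakdown, had 1.90, 0.80 and 0.78, and the vitamin C transporter SLC23A1 1.87, 0.69 and 1.13. Some of the rises did not repeat. ZBED6, CCDC18 and PWAR6 had differences of 1.80, 0.87 and 1.00 in the untreated pair of RIVA and -0.72, -1.58 and -1.20 in its low-dose pair. In RIVA they were higher at 2 h than at 0 h by 2.00, 1.63 and 1.54, on the array where the ACTB difference had reached 1.66, and the part of RNA quality in these genes was not tested.

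Changes at 12 h were smaller than at 48 h. The untreated 12 h and 0 h arrays gave 0 called genes of 19775 (0.0%, smallest adjusted p 0.178, limma), with 990 at an unadjusted p below 0.05, and 19, 10 and 9 called without OCI-Ly7, RIVA and U2932 in turn. The direct test of 48 h against 12 h, which shares the 48 h arrays, also called 0 (0.0%), with 2515 at an unadjusted p below 0.05 and 779 called without U2932. The standard deviation over genes from 12 h to 48 h was 0.456 in OCI-Ly7, 0.402 in RIVA and 0.240 in U2932. At 12 h the median of ribosome biogenesis was -0.14, -0.10 and -0.03, and that of the RIVA hypoxia list was 0.15. MRTO4 read 10.23, 10.07 and 9.79 at 12 h, close to its 0 h levels.

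**Figure D5:**
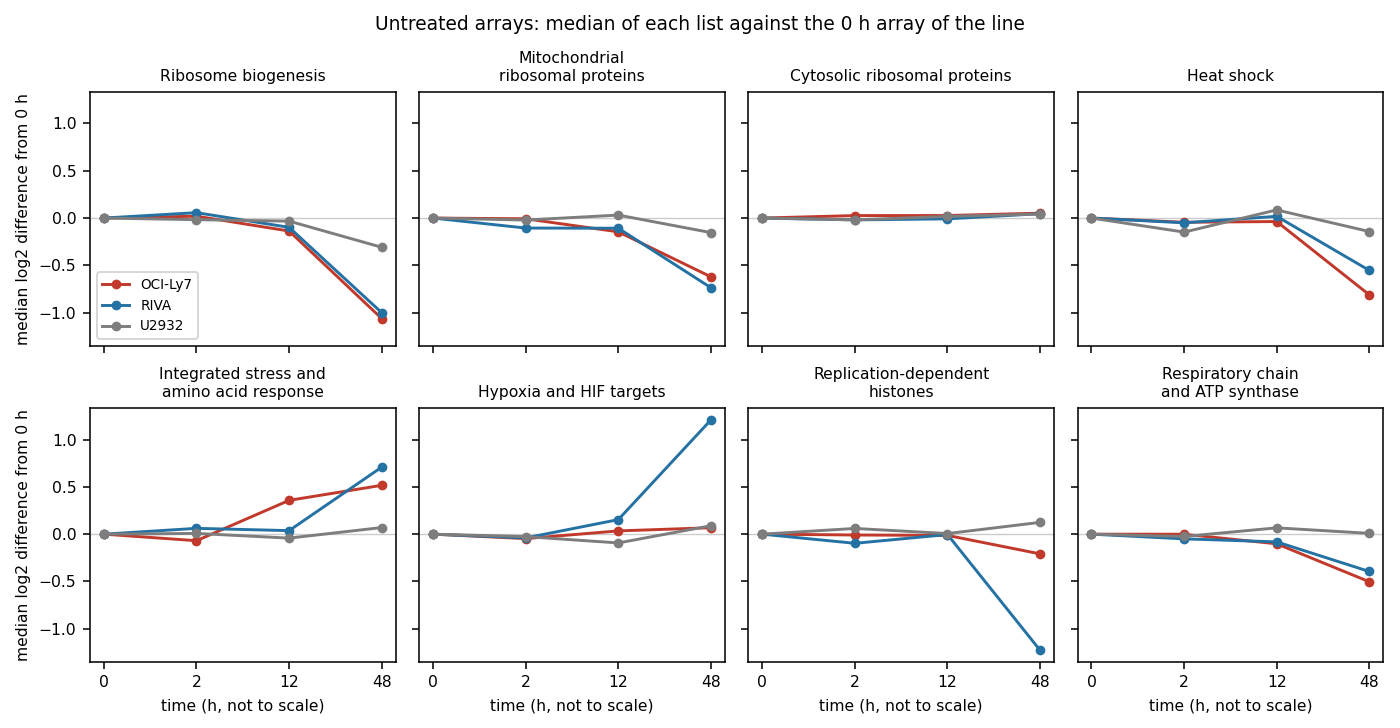
Median log2 difference from the 0 h array of the same line for 8 gene lists at 2, 12 and 48 h in untreated cells (horizontal axis not to scale); lines join 1 array per time and line, so no error is shown. The medians at 2 and 12 h lie near 0, apart from the integrated stress list in OCI-Ly7 at 12 h (0.36); at 48 h ribosome biogenesis is at -1.06 in OCI-Ly7 and -0.31 in U2932 (-0.30 and -0.16 on the poly-A scale).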

How the data were processed

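Labelled RNA from 6 cell lines was measured on Affymetrix arrays with 54675 probe sets. The authors deposited log2 intensities; the submitters' processing notes name RMA, affy and R 3.0.2. RMA subtracts background, forces all arrays to 1 distribution of intensities and summarises each probe set. Of the probe sets, 41097 listed 1 gene in the platform annotation, and the one with the highest mean over 49 arrays stood for each of 19775 genes (10523 had several). Symbols were updated through the RefSeq table of GRCh38.p14, which held 41043 of the 41097. All deposited columns were matched to samples (0 left over). Groups came from the titles.

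Comparisons were fitted with limma 3.58.1 in R 4.3.3 (line as block, variance trend) and adjusted by Benjamini-Hochberg over 19775 genes, with calls at 0.05; the scripts were tested on simulated data. The line-by-line fit used 12 arrays, with each pair as a block and 3 residual degrees of freedom (median 13.4 after moderation). No source says that replicates were separate cultures. The comparison, its 38 gene lists (1086 of 1209 entries measured) and the tests were chosen with earlier results of these data known. Genes named were, by rule, the 12 largest rises and falls (where fewer than 10 were called, by the smallest of the 3 line differences), the 4 or fewer best-ranked members per list by p, and 30 single genes; other members were named after their values were seen. Alternatives changed the scale, the probe set rule, the filter, the variance model, the block and the lines included. Lists were not tested as sets.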

Additional observations from a re-analysis of the deposited data

Results flagged for a closer look

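The change over 48 h differed between OCI-Ly7, RIVA and U2932 for 5252 of 19775 genes in the moderated F test of the line-by-line fit (limma, adjusted p below 0.05). Among the single genes chosen by name, 23 differed between lines, and 3 of these were called in opposite directions in 2 lines. The highest and lowest line change lay 1.55 apart for MYC, 1.78 apart for HMGCS1 and 1.48 apart for INSIG1, all on the log2 scale. In each case OCI-Ly7 went one way and U2932 the other.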

How the results depend on the processing

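The count of 0 for untreated 48 h against 0 h stayed at 0 with no replicate block (line ignored), without the variance trend, with arrays centred on their medians, over the brighter genes and with the mean of all probe sets. It was 787 (209 higher, 578 lower) in a joint fit of all untreated arrays of the 3 lines, and 1841 (789 higher, 1052 lower) with the low-dose pairs added, an alternative chosen after seeing the data. Leaving out 1 line gave 0 to 217. For 12 h against 0 h, leaving out 1 line gave 9 to 19, for 48 h against 12 h 0 to 779 (14 in the joint fit), and for the low dose 0 to 708. On the poly-A scale, which moves every gene of an array alike, the 4 counts were 4374 (4355 higher), 1, 2104 (2014 higher) and 59, and the counts by line were 10523 (10381 higher) in OCI-Ly7, 1407 (1246 higher) in RIVA and 19 in U2932, with 1814 genes differing between lines. In U2932 the count of 748 became 206 without the trend and 459 with the mean of probe sets. The line-by-line alternatives were added after seeing the data. Of the 24 named genes none reversed, and 22 passed in the joint fit, 15 on the poly-A scale and 11 without U2932. As the untreated pairs chose these genes and also entered each of these fits, the counts are a description and no separate check. The medians over the 3 lines moved by more than 1 SD for 36 of 38 lists on the poly-A scale. The cause of these differences was not tested. With 1 array per line and time, small changes could not be told from array noise.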
